A study of Mus musculus with 6 samples.

Results

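MHC class II presentation genes were followed here over 3 sorted progenitor populations of mouse fetal liver in 2 genotypes. The 9 genes were H2-Aa, H2-Ab1, H2-Eb1, Cd74, H2-DMa, H2-DMb1, H2-Oa, H2-Ob and Ciita. Every non-control probe whose RefSeq accession belongs to such a gene was taken, which gave 11 of the 55681 probes and 9 of the 20667 named genes on the array. H2-Ab1 and H2-Ob had 2 probes each, numbered by brightness, and the other genes had 1.

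MHC class II molecules display peptides from endosomes to CD4 T cells. H2-Aa and H2-Ab1 encode the alpha and beta chains of the mouse molecule I-A, and H2-Eb1 encodes the beta chain of I-E. C57BL/6 mice do not make the I-E alpha chain, so their H2-Eb1 product lacks its usual partner. Cd74, the invariant chain, fills the peptide groove of new class II molecules and guides them to endosomes, where H2-DMa and H2-DMb1 form the DM dimer that exchanges the remaining invariant chain peptide for others. H2-Oa and H2-Ob form the DO dimer, which binds DM and restrains it, and which is best known from B cells and some dendritic cells. Ciita is the transactivator that joins factors bound to the X and Y boxes of class II promoters and is the master regulator of the pathway. Mature B cells, dendritic cells and macrophages are the cells best known for class II display.

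RNA was taken from livers of C57BL6/J fetuses at E18.5 (embryonic day), which were either Satb1-null or wild type littermates. Satb1 encodes a chromatin organiser, and the study asked which genes it affects in early lymphoid progenitors. HSC here are stem cell enriched cells (Lin-, c-kit high, Sca-1+, Flt3-), LMPP are lymphoid-primed multipotent progenitors that differ from them by carrying Flt3, and CLP are common lymphoid progenitor enriched cells (Lin-, low in c-kit and Sca-1, IL7R alpha+). Each of the 6 groups had 1 single-colour array made from 6.1 ng of total RNA that was amplified before labelling. The labels do not give the number of embryos per sort, and the sources used here do not say how the null allele was made. A level below is the log2 processed signal less the 75th percentile of its array, and levels are compared only within a probe. A difference between 2 arrays has no replicate check and no test, and is set against the scanner's own error, which leaves out variation between animals, sorts and amplifications. The number of arrays limits the precision throughout.

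The share of spots well above background lay between 52.4% and 57.7% per array, and no spot was saturated. The Satb1 probe measured -0.03, 1.996 and 0.71 across wild type HSC, LMPP and CLP and -0.59, 1.96 and 0.65 across Satb1-null. The sources used here do not place it relative to the removed sequence, so that it cannot check the labels, and "Satb1-null" below is the name on the label. In both genotypes the Flt3 probe was brightest in LMPP and the Il7r probe in CLP, which are the gates those populations were sorted on. Flt3 was also well above background in HSC, at 1.18 in wild type and 1.35 in Satb1-null, beside 0.85 and 1.78 in CLP. Kit and Ly6a, which encodes Sca-1, were lowest in CLP in both genotypes. In wild type Ly6a differed little between CLP (0.21) and HSC (0.29). Neither named Xist probe was well above background on a wild type array and both were on all 3 Satb1-null arrays, while Eif2s3y differed by -2.43, -2.32 and -1.23 in HSC, LMPP and CLP. Sex-linked signal thus went with the genotype label, though not as a clean split. Eif2s3y and Ddx3y were well above background on all 3 Satb1-null arrays too, and Uty probe 2 differed by 0.38 in CLP. The wild type arrays also filled 1 row of the slide and the Satb1-null arrays another. Genotype, slide row and sex of the embryos cannot be told apart.

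The promoters are shown because textbooks give these genes a shared X and Y box module, and their levels below followed different orders over the populations. RefSeq windows of GRCm38.p6, from 250 bases before to 50 bases after a gene's start, were matched for 6 of the 9 genes (H2-DMa has 2 windows). Each sequence is the 150 bases before the start, 5′ to 3′ on the gene's strand. Capitals mark the Y box letters ATTGG on either strand, the letters of an X box consensus, and the looser core GNAAC where it starts 25 to 40 bases before the Y box letters.
H2-Aa (chr17:34287824-34287973, minus strand): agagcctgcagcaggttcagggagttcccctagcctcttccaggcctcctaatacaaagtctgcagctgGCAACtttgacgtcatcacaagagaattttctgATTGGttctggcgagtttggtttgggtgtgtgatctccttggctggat
H2-Eb1 (chr17:34305717-34305866, plus strand): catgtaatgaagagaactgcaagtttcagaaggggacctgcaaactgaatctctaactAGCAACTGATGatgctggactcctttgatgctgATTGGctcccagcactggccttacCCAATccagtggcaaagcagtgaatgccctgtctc
H2-DMb1 (chr17:34153041-34153190, plus strand): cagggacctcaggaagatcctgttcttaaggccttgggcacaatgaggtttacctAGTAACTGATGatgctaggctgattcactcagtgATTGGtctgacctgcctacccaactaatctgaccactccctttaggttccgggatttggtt
H2-Oa (chr17:34092229-34092378, plus strand): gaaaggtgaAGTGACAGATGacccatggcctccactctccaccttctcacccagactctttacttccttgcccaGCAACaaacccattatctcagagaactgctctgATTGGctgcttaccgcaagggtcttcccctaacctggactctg
H2-Ob (chr17:34238755-34238904, plus strand): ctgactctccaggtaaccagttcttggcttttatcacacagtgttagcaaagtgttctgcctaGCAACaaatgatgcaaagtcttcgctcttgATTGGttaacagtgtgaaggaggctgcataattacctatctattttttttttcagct

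The 5 windows printed held ATTGG on the gene strand near the start, and the 2 windows of H2-DMa, which did not, are not printed. It started 48 bases before the start in H2-Aa, 59 in H2-Eb1, 61 in H2-DMb1, 43 in H2-Oa and 57 in H2-Ob. Of all 32851 windows, 37.4% held ATTGG on either strand, and 4.15% held it on the gene strand between 40 and 70 bases before the start. That range was not planned and takes in all 5 positions above, so the 4.15% is a description and no test of them. The X box letters occurred in H2-Eb1, H2-DMb1 and H2-Oa, against 0.968% of all windows. Both sets of letters were taken from textbook knowledge of class II promoters, so this share too is a description and no test. They started 92 bases before the start in H2-Eb1, 95 in H2-DMb1 and 141 in H2-Oa. The looser core, chosen after the windows were seen, lay 30 to 33 bases before the Y box letters in the 5 printed windows and in neither H2-DMa window. Of all windows, 2.67% held such a pair. It overlaps the X box letters in H2-Eb1 and H2-DMb1, while in H2-Oa those letters lie farther upstream, apart from it. Of the H2-DMa windows, the second held ATTGG 198 bases before its start, and neither held the X box letters. These matches are letters, not measured binding.

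**Figure D1:**
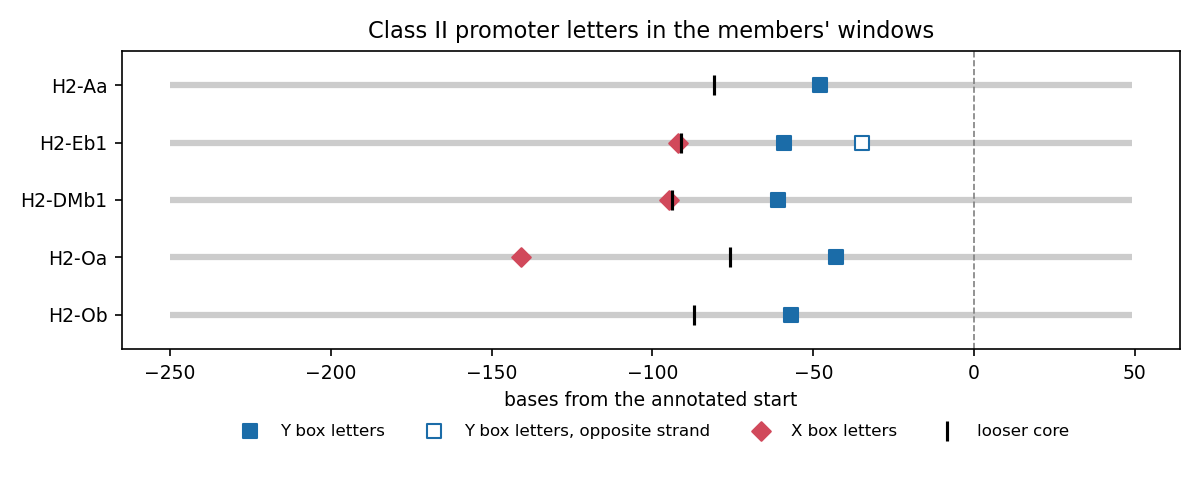
Positions of the letters in the promoter windows of 5 class II genes, in bases from the annotated start (horizontal axis), with 1 line per gene. Filled squares mark ATTGG on the gene strand, the open square ATTGG on the opposite strand, diamonds the X box letters and ticks the looser core. On the gene strand, the Y box letters sit between 43 and 61 bases before the start in the 5 genes drawn. H2-DMa, which has no such letters there, is left out.

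The peptide-binding chains and the invariant chain were lowest in HSC and highest in CLP, in both genotypes. H2-Aa, both H2-Ab1 probes, H2-Eb1 and Cd74, 5 of the 11 member probes, were ordered HSC below LMPP below CLP on the wild type and on the Satb1-null arrays. Of all 30557 probes well above background on at least 3 arrays, 6.69% had this order in both genotypes. For these 5 probes both CLP arrays also lay above both LMPP arrays, and these above both HSC arrays, an order without overlap that 4.52% of all probes had. In bulk samples, fewer cells with a transcript and less of it per cell cannot be told apart.

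Cd74, the invariant chain, had processed signals of 38.8, 132 and 1076 across wild type HSC, LMPP and CLP and of 100.2, 330.3 and 2200.2 across Satb1-null. On the log2 scale it measured -2.18, -0.49 and 2.56 across wild type and -1.08, 0.84 and 3.26 across Satb1-null. The Satb1-null array was the brighter of the pair in each population, and the populations did not overlap.

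H2-Ab1, the I-A beta chain, gave the same order with both of its probes. Probe 1 measured -1.44, 1.16 and 2.91 across wild type HSC, LMPP and CLP and -0.42, 1.62 and 2.93 across Satb1-null. Probe 2 measured -2.33, 0.41 and 2.18 across wild type and -1.28, 0.91 and 2.19 across Satb1-null. The genotypes lay apart in HSC and within 0.03 of each other in CLP by either probe.

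H2-Aa, the I-A alpha chain, was dim (not well above background) in both HSC samples, where its measured levels were -3.96 in wild type and -5.37 in Satb1-null. In LMPP it stood at -0.45 in wild type and 0.45 in Satb1-null, and in CLP at 2.05 and 2.67. In wild type, LMPP was at least 11.4-fold brighter than HSC for this probe, and in Satb1-null at least 22.4-fold. Such bounds compare the brighter array with the higher of the dim probe's own level and the lowest level well above background on the dim array, which lay between -4.19 and -3.76 on the 6 arrays. Where the probe's own level was the higher, the value is the measured difference and not a strict limit. This holds for H2-Aa in wild type HSC (log2 3.51 to LMPP, scanner error 0.40) and for H2-Ob probe 2 in wild type CLP.

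H2-Eb1, the I-E beta chain, was likewise not well above background in HSC, at -4.09 in wild type and -4.88 in Satb1-null. It stood at -3.17 in wild type LMPP and -1.15 in Satb1-null LMPP, and at -0.10 and 1.15 in CLP. Because the wild type HSC array was dim, the step from HSC to LMPP in wild type was only bounded, at 0.86 or more. The bound is small because the wild type LMPP level was within 1 log2 unit of the lowest level well above background.

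**Figure D2:**
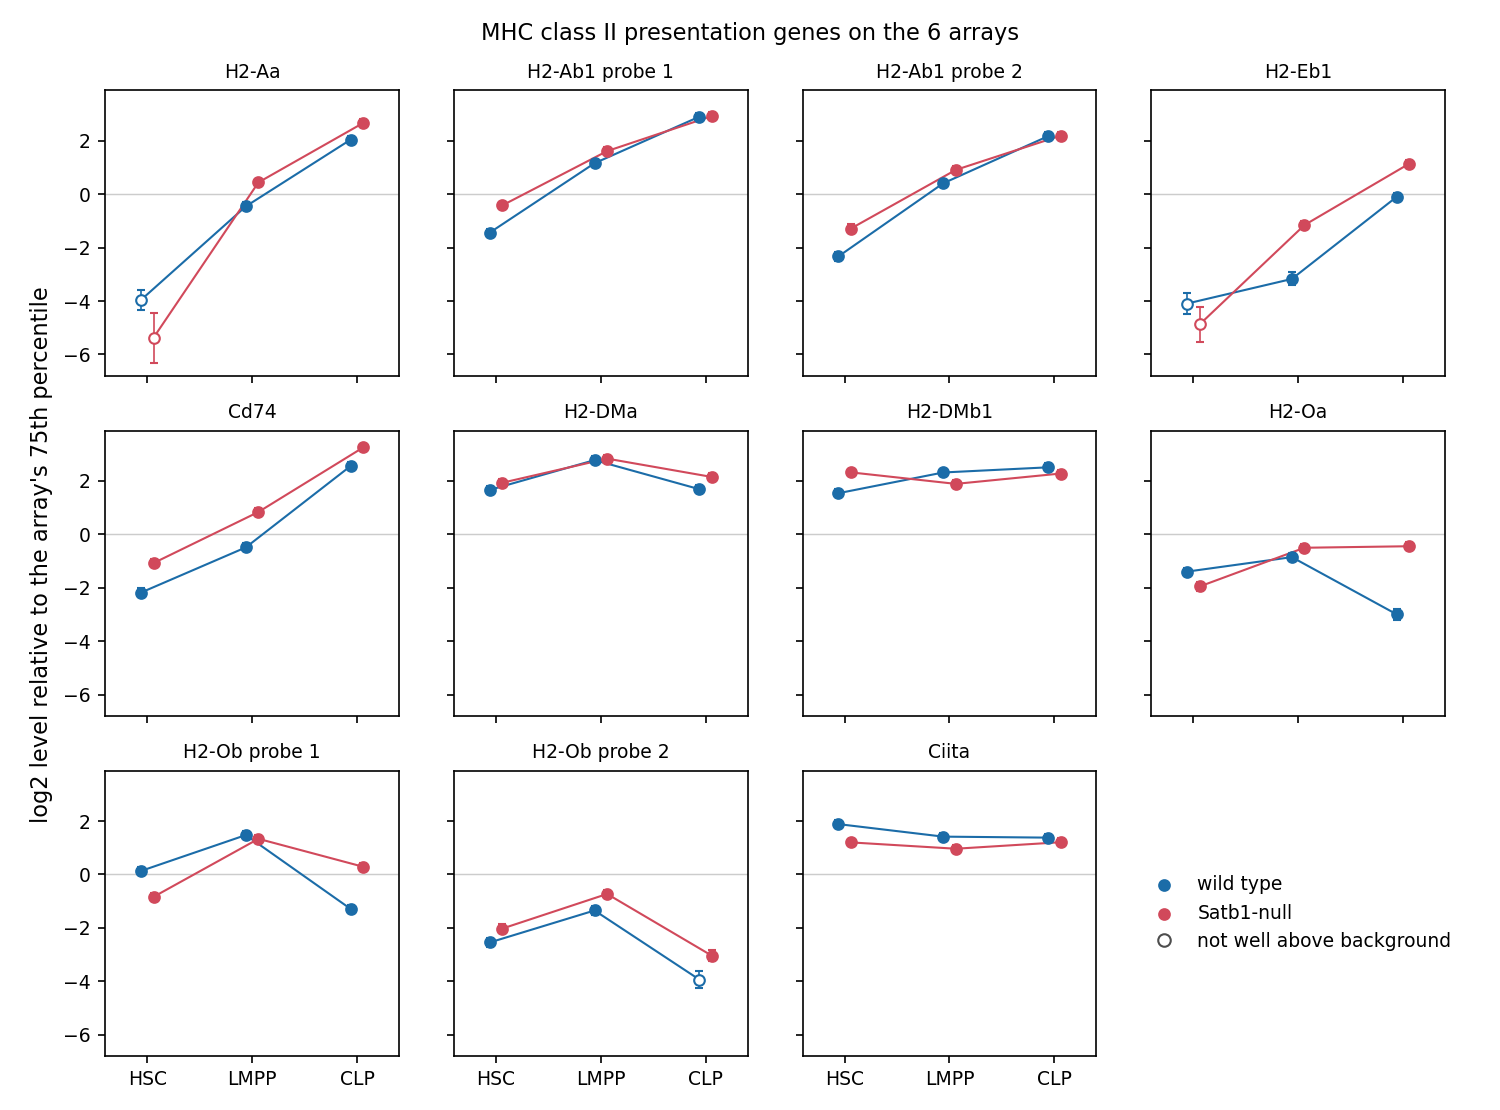
Level of each class II member probe in HSC, LMPP and CLP, as log2 of signal over the 75th percentile, in wild type (blue) and Satb1-null (red), with 1 array per point and the scanner's error as bars. Open circles are not well above background. H2-Aa, H2-Ab1, H2-Eb1 and Cd74 are lowest in HSC and highest in CLP in both genotypes, H2-DMa and H2-Ob peak in LMPP, and Ciita moves within 0.92 log2 units.

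The difference between CLP and HSC was tested with limma over all 6 arrays, 2 per population, with genotype as a term. All 5 probes of the chains and Cd74 were higher in CLP at an adjusted p under 0.05, and no other member probe passed in either direction. Of the 30557 probes tested, 1.21% were called higher and 1.06% lower. Cd74 rose by 4.54 ± 0.28 (SE), or 23.2-fold, with an adjusted p of 0.0344. The H2-Ab1 probes rose by 3.85 ± 0.34 (adjusted p = 0.0378) and 3.99 ± 0.34 (adjusted p = 0.0375). H2-Aa was at least 82.1-fold higher in CLP (log2 6.36, adjusted p = 0.0344) and H2-Eb1 at least 23.6-fold higher (log2 4.56, adjusted p = 0.0433), both against HSC arrays on which they were dim. Leaving out any 1 of the 6 arrays, which leaves 1 residual degree of freedom, ended every call in this fit, members and other probes alike, while the estimate for Cd74 stayed between 4.28 and 4.80 and that for H2-Aa between 5.94 and 6.78. H2-Eb1 was no longer past the threshold with centring on detected spots (4.25, adjusted p = 0.0518), with the authors' processed values (4.38, adjusted p = 0.0539) or without the floor (5.01, adjusted p = 0.0792).

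Markers of other cell types moved with CLP in the same fit. Of 6 tested macrophage and monocyte markers 2 rose from HSC to CLP, Adgre1, an adhesion receptor of tissue macrophages (4.76), and the adhesion molecule Vcam1 (4.26), each well above background on 5 of 6 arrays, and the summed level of the 10 matched genes, in multiples of the array's 75th percentile, was 29.3 and 35.1 in CLP against 22.2 to 25.2 on the other arrays. Most of that sum was Csf1r, whose level stayed between 4.33 and 4.61 on all 6 arrays, and the list's median difference between CLP and HSC was 3.76 over the 6 tested. C1qa was not well above background on any array. Of 7 tested B cell markers (median difference 2.42) none passed between CLP and HSC, and Pax5, a B lineage factor, passed between CLP and LMPP (2.96, adjusted p = 0.0420). The summed level of the 10 B cell markers was 13.7 and 14.8 in CLP against 6.72 to 8.16 elsewhere, and Ms4a1, which encodes CD20, was not well above background on any array.

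Of 6 tested dendritic cell markers (median difference 0.05) none passed in this fit, with a summed level of 19.3 and 21.1 in CLP, 16.8 and 18.1 in HSC and 32.3 and 33.1 in LMPP. That sum includes Flt3, part of the LMPP gate, which stood at 3.21 and 3.32 in LMPP against 0.85 to 1.78 on the other arrays. The other markers of this list were well above background on fewer than 3 arrays, so the fit did not cover them. Xcr1 and Cd209a were dim on all 6 arrays. Itgax, which encodes CD11c, Clec9a and Ccr7 were well above background on the 2 CLP arrays only. Itgax stood there at -2.64 and -2.42, Clec9a at -1.05 and -1.02 and Ccr7 at -1.39 and -1.20. In wild type and Satb1-null, CLP lay above HSC by at least 1.39 and 1.62 for Itgax, 2.98 and 3.02 for Clec9a and 2.64 and 2.83 for Ccr7. Batf3 was well above background in wild type CLP and Satb1-null HSC. Erythroid markers summed to 705 and 757 in CLP against 16.1 to 93.0 elsewhere, with 3 of 5 tested higher and a median difference of 3.95. Eosinophil, basophil and mast cell markers summed to 190 and 135 in CLP against 4.02 to 12.0, with 2 of 4 higher and a median difference of 3.17. Endothelial and stromal markers summed to 15.0 and 5.54 against 3.34 to 4.37, with 3 of 6 higher and a median difference of 2.05. None of 5 tested innate lymphoid and T cell markers passed between CLP and HSC, where their median difference was 0.21. The part of these cells in the class II difference was not tested.

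**Figure D3:**
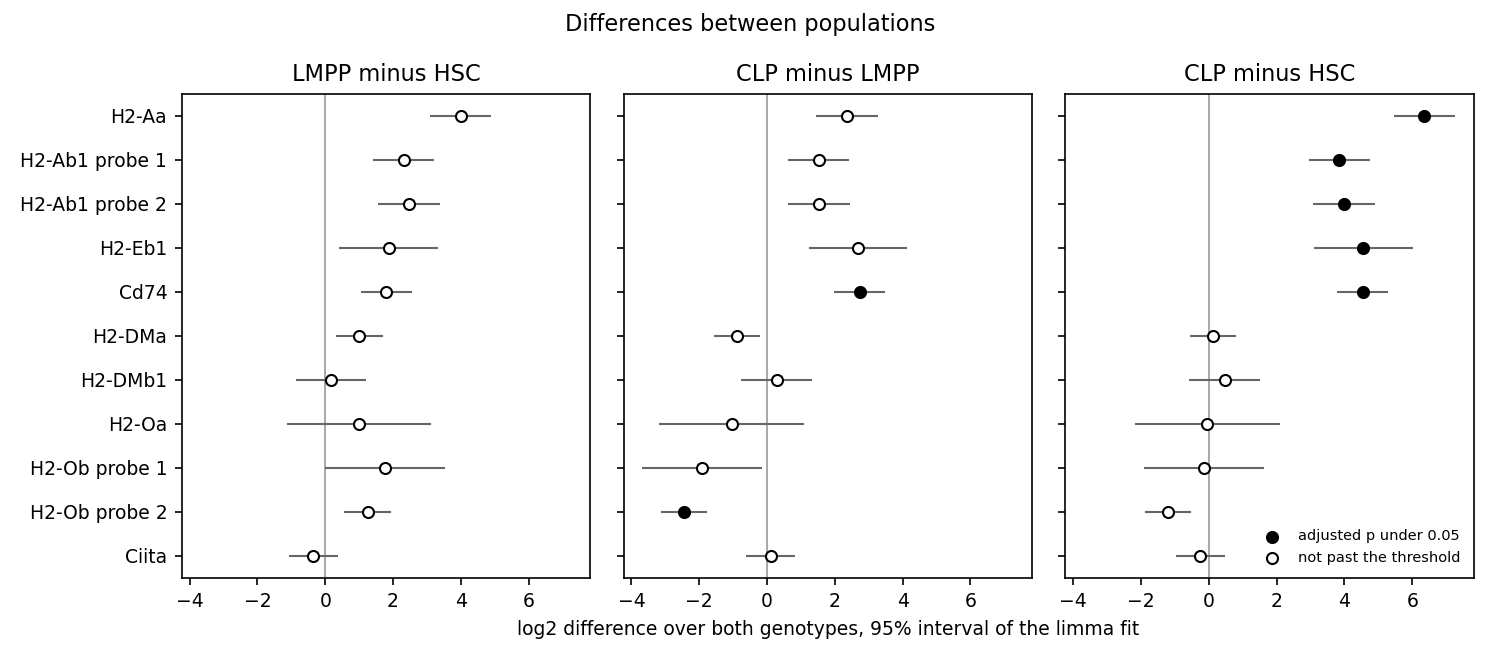
Differences between populations for each class II member probe, in log2 over both genotypes, from the limma fit of 6 arrays, with 95% intervals. Filled circles passed an adjusted p of 0.05. The 5 filled points of the CLP minus HSC panel are H2-Aa, both H2-Ab1 probes, H2-Eb1 and Cd74. Differences from HSC for H2-Aa and H2-Eb1 are lower bounds, and both probes were well above background only in LMPP and CLP.

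Between CLP and LMPP, Cd74 was the member called higher, by 2.74 ± 0.28 (6.66-fold, adjusted p = 0.0368), against 1.61% of all probes called higher, and with any 1 array left out it lay between 2.47 and 2.996 without passing. H2-Aa missed the threshold at 2.36 (adjusted p = 0.0507), H2-Eb1 stood at 2.69 (adjusted p = 0.0843), and the H2-Ab1 probes at 1.53 and 1.52 (adjusted p = 0.0967 and 0.0992). Between CLP and LMPP the same marker lists had 2 of 6 macrophage and monocyte markers higher, 1 of 7 B cell (Pax5), 0 of 6 dendritic cell, 3 of 5 erythroid, 4 of 4 eosinophil, basophil and mast cell, 2 of 6 endothelial and stromal and 1 of 5 innate lymphoid and T cell markers, and none lower. Between LMPP and HSC no probe of the 30557 was called by limma, while 2377 had an unadjusted p under 0.05, among them 7 of the 11 member probes. The smallest member adjusted p was 0.542, for H2-Aa, whose difference was at least 3.99. Array by array, 6 of the 11 member probes were at least 2-fold higher in LMPP than in HSC in both genotypes, against 1.47% of all probes. They were H2-Aa, both H2-Ab1 probes, Cd74 and both H2-Ob probes. For CLP over LMPP the same count was 5 of 11, the chains and Cd74, against 5.62%, and for CLP over HSC it was 5 of 11 against 6.01%.

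Within wild type, 7 of 11 member probes were at least 2-fold higher in LMPP than in HSC, against 6.50% of all probes, and none was lower (background 10.9%). From LMPP to CLP, 5 were higher (background 13.6%) and 4 lower (background 18.1%), the latter H2-DMa, H2-Oa and both H2-Ob probes. Within Satb1-null, 8 were higher in LMPP than in HSC (background 8.54%) and none lower (8.99%), and from LMPP to CLP 5 were higher (13.0%) and the 2 H2-Ob probes lower (16.4%). Between HSC and CLP directly, wild type had 5 higher (14.4%) and 3 lower (19.7%), and Satb1-null 7 higher (13.3%) and 1 lower (16.1%). The centring moves these counts, since the median of all probes between CLP and HSC in wild type was -0.13, became -0.57 with the 75th percentile over detected spots and 0.38 with median centring. At least 5 member probes were 2-fold higher in CLP than in HSC in each genotype under each of the 6 scalings.

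**Figure D4:**
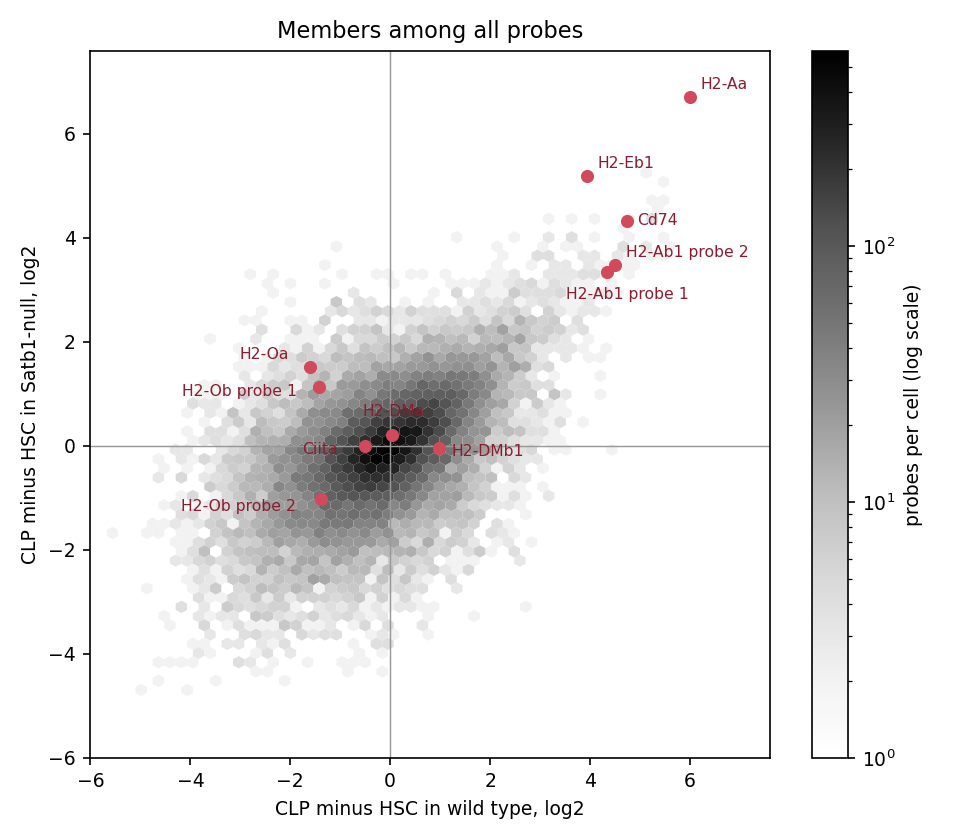
Difference between CLP and HSC in wild type (horizontal axis) and in Satb1-null (vertical axis), in log2, for the probes well above background on at least 3 arrays (grey, log colour scale of probes per cell) and for the class II member probes (red). H2-Aa, H2-Ab1, H2-Eb1 and Cd74 lie at the upper right edge, H2-Oa and H2-Ob probe 1 are negative in wild type and positive in Satb1-null, and the H2-Aa and H2-Eb1 values are lower bounds.

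None of the 5 probes of the DM and DO genes was ordered HSC below LMPP below CLP in both genotypes, though H2-DMb1 had that order in wild type and H2-Oa in Satb1-null. H2-DMa and both H2-Ob probes were highest in LMPP in both genotypes, 3 of 11 member probes, a share near the 19.5% of all probes. H2-DMa, the DM alpha chain, measured 1.66, 2.78 and 1.69 across wild type HSC, LMPP and CLP and 1.93, 2.84 and 2.15 across Satb1-null. Its whole range over the arrays was 1.17 log2 units, and its CLP minus LMPP difference of -0.89 did not pass (adjusted p = 0.150). H2-DMb1, the DM beta chain, measured 1.54, 2.32 and 2.51 across wild type and 2.32, 1.89 and 2.28 across Satb1-null. LMPP was its lowest population in Satb1-null and the middle one in wild type, within a range of 0.97, and none of its fitted differences passed.

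H2-Ob, the DO beta chain, was brightest in LMPP by both probes in both genotypes. H2-Ob probe 1 measured 0.13, 1.47 and -1.30 across wild type HSC, LMPP and CLP and -0.84, 1.33 and 0.29 across Satb1-null. H2-Ob probe 2 measured -2.55, -1.35 and -3.94 across wild type, the last not well above background, and -2.03, -0.73 and -3.05 across Satb1-null. Probe 2 was lower in CLP than in LMPP by limma, with a difference of -2.45 ± 0.26 (adjusted p = 0.0369, 1.34% of all probes lower). It lay between -2.61 and -2.29 with any 1 array left out, without passing, and probe 1 differed by -1.91 ± 0.66 without passing (adjusted p = 0.195). The 2 probes thus ran the same way between LMPP and CLP and apart between HSC and CLP in Satb1-null, where probe 1 was 1.13 higher in CLP and probe 2 was 1.02 lower.

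H2-Oa, the DO alpha chain, measured -1.40, -0.85 and -3.00 across wild type and -1.95, -0.50 and -0.45 across Satb1-null. Its wild type CLP level was the lowest of the 6 and its Satb1-null CLP level the highest. The fitted CLP minus HSC difference was -0.05 ± 0.80 (adjusted p = 0.980), and it turned positive with median centring, quantile normalization and normexp.

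Ciita, the transactivator, varied little over the populations. It measured 1.88, 1.41 and 1.38 across wild type HSC, LMPP and CLP and 1.20, 0.96 and 1.21 across Satb1-null. The range of 0.92 log2 units was the smallest of the 11 member probes. Its CLP minus HSC difference was -0.25 with a 95% interval from -0.97 to 0.47 (adjusted p = 0.618), beside at least 3.85 for each probe of the chains and Cd74. The wild type array was the brighter in each population, by 0.69, 0.45 and 0.17 in HSC, LMPP and CLP.

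Between genotypes, the member probes past 2-fold were all higher on the Satb1-null array with the 75th percentile scaling used here. In HSC, 3 of the 9 member probes with a measured difference were at least 2-fold higher, against 7.88% of all probes, and none was lower (background 10.7%). They were Cd74 (1.11) and the H2-Ab1 probes (1.02 and 1.05), with scanner errors of 0.23, 0.21 and 0.23. Each lies near the 2-fold line, and none of the 3 passed with normexp or with the 75th percentile over detected spots, where the median of all probes was -0.22 in place of 0.00. With the authors' processed values Cd74 alone passed upwards (1.01). H2-Ob probe 1, at -0.97 here, passed 2-fold downwards with the 75th percentile over detected spots (-1.19), with quantile normalization (-1.04) and with the authors' values (-1.07). H2-Aa and H2-Eb1 were dim on both HSC arrays and have no difference there.

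In LMPP, 2 of 11 were at least 2-fold higher, against 7.13% of all probes, and none was lower (5.26%). H2-Eb1 differed by 2.02 with a scanner error of 0.29, or 4.05-fold, and Cd74 by 1.33 with an error of 0.21, or 2.51-fold. H2-Aa differed by 0.90 and the H2-Ab1 probes by 0.45 and 0.50, each past the scanner error and within 2-fold.

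In CLP, 3 of 11 were at least 2-fold higher, against 12.4% of all probes, and none was lower (10.8%). H2-Oa differed by 2.55 with a scanner error of 0.26, or 5.86-fold, H2-Ob probe 1 by 1.58 with an error of 0.21, and H2-Eb1 by 1.24 with an error of 0.21. H2-Ob probe 2 was at least 0.89 higher, its wild type array being dim. The H2-Ab1 probes differed by 0.02 each, less than their scanner error of 0.20, and Cd74 by 0.70.

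**Figure D5:**
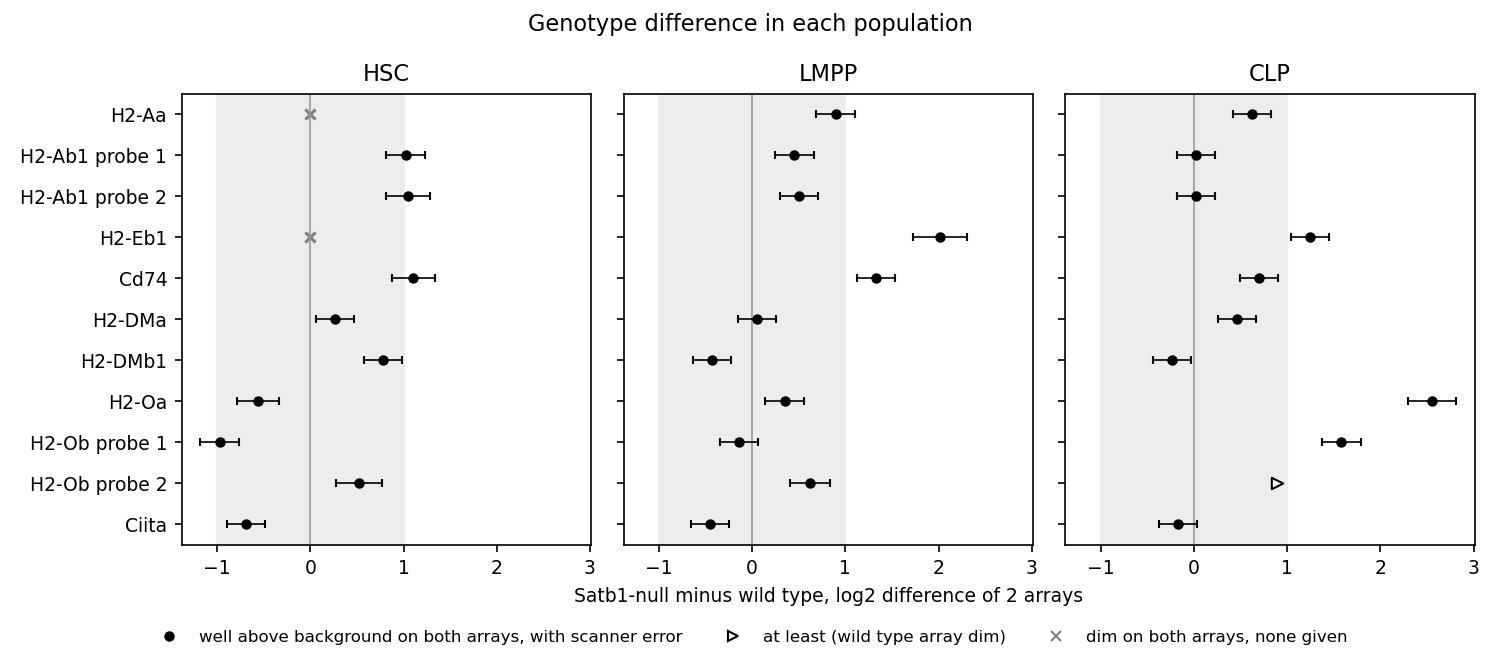
Satb1-null minus wild type difference of each class II member probe in HSC, LMPP and CLP, in log2, from 1 array per genotype, with the scanner's error of the difference as bars. The grey band is within 2-fold, the triangle is a lower bound, and crosses mark probes dim on both arrays, for which no difference is given. Points right of the band are Cd74 and H2-Ab1 in HSC, H2-Eb1 and Cd74 in LMPP, and H2-Oa, H2-Ob probe 1 and H2-Eb1 in CLP.

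No member was called for genotype when limma pooled the 3 populations. Of all 30557 probes, 0.0131% (4 probes) were called higher and 0 lower, and 1898 had an unadjusted p under 0.05. Among the members, 10 of 11 estimates were above 0, with a median of 0.50 beside -0.01 over all probes. Cd74 was 1.04 ± 0.23 higher (unadjusted p = 0.00855, adjusted p = 0.781) and was higher in 3 of 3 populations. H2-Ob probe 2, at 0.68 ± 0.21, was the other member with an unadjusted p under 0.05 (0.0275), and its wild type CLP array was dim. Satb1-null lay above wild type in all 3 populations for 5 of 11 member probes (both H2-Ab1 probes, Cd74, H2-DMa and H2-Ob probe 2), against 12.0% of all probes. Ciita lay below in all 3, the only member probe to do so, against 17.1% of all probes.

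Marker lists of other cells are given beside these values, as counts at least 2-fold apart between genotypes among the measured markers. In LMPP, where Cd74 and H2-Eb1 passed 2-fold, 3 of 6 macrophage and monocyte markers, 4 of 7 B cell markers, 4 of 5 erythroid markers and 4 of 4 eosinophil, basophil and mast cell markers were higher in Satb1-null, and none of these was lower. Their summed levels in wild type and Satb1-null LMPP were 24.1 and 22.2, 6.72 and 7.06, 17.5 and 93.0, and 4.02 and 11.8. Csf1r made up most of the macrophage and monocyte sums, and Cd22, at 2.29 and 2.09, most of the B cell sums. Near-equal sums thus do not show that the other markers of these lists were equal. In the same cells 1 of 6 dendritic cell markers was higher, 1 of 5 endothelial and stromal markers was lower, and innate lymphoid and T cell markers stayed within 2-fold.

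In HSC, 3 of 6 B cell markers and 2 of 5 erythroid markers were higher, with sums of 8.16 and 8.04 and of 16.1 and 41.6. Most of the B cell sums was again Cd22, at 2.81 in wild type and 2.07 in Satb1-null. Also in HSC, 1 of 7 dendritic cell markers was higher, 1 of 5 macrophage and monocyte markers was higher and 1 lower, and 2 of 5 endothelial and stromal and 2 of 5 innate lymphoid and T cell markers were lower. In CLP, 4 of 9 macrophage and monocyte markers, 2 of 9 B cell markers, 2 of 5 eosinophil, basophil and mast cell markers and 3 of 7 innate lymphoid and T cell markers were higher, the last with 1 lower. Endothelial and stromal markers went the opposite way in CLP, with 4 of 6 lower and 1 higher (sums 15.0 and 5.54), 2 of 10 dendritic cell markers were lower, and erythroid markers stayed within 2-fold. Interferon response genes were lower in LMPP for 5 of 9 and higher for none, against 1 of 9 higher in HSC and 1 higher and 2 lower in CLP. The part of these cells in the class II differences was not tested.

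Partners of the pathway were read from lists over the same fits. Of 18 genes for class II promoter factors and their partners, 1 passed between CLP and HSC, Irf8, a factor of dendritic, monocytic and B cell development, which rose by 3.69 (adjusted p = 0.0344). It measured -0.34, 1.57 and 3.40 across wild type HSC, LMPP and CLP and -0.51, 1.67 and 3.13 across Satb1-null. The list's median difference was 0.47, beside -0.09 over all probes. Spi1, which encodes PU.1, measured 1.96, 3.03 and 3.72 across wild type and 2.53, 2.84 and 3.60 across Satb1-null without passing (1.41, adjusted p = 0.0949). Rfx5, the X box factor, differed by 0.05 (adjusted p = 0.963). Irf4, well above background on 3 arrays, stood at -2.80 in wild type CLP and at -0.17 in Satb1-null CLP. None of the 18 passed in the genotype fit or in the fits of adjacent populations.

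Of 12 genes of endosomal processing and surface turnover, 2 rose from HSC to CLP, and the list's median difference was 1.15. Ctss, the protease that trims the invariant chain, rose by 3.70 (adjusted p = 0.0472). It measured -0.02, 2.93 and 2.90 across wild type HSC, LMPP and CLP and -0.42, 2.63 and 4.07 across Satb1-null. Lgmn, an asparaginyl endopeptidase of lysosomes, rose by 1.96 (adjusted p = 0.0497). Neither passed between LMPP and HSC or between CLP and LMPP.

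None of the 12 class I presentation genes passed in a fit, with a median CLP minus HSC difference of -0.23. Nlrc5, the class I counterpart of Ciita, measured 0.00, -0.77 and -1.66 across wild type HSC, LMPP and CLP and -0.90, -1.15 and -2.70 across Satb1-null (-1.73 between CLP and HSC, adjusted p = 0.0645). None of the 3 other class II region genes passed either, and H2-Ea was not analysed here. H2-DMb2 measured -0.93, 1.23 and 0.37 across wild type HSC, LMPP and CLP and -1.69, 0.97 and 0.25 across Satb1-null. Its LMPP minus HSC difference was 2.41 (limma adjusted p = 0.542), and that difference was negative for H2-Eb2 (-1.22) and Btnl2 (-0.43). Of 4 tested costimulation genes, Cd274, which encodes the inhibitory ligand PD-L1, was lower in CLP than in LMPP (-4.44, adjusted p = 0.0344) and than in HSC (-3.64, adjusted p = 0.0375). Neither CLP array was well above background for it, so both values bound the size of the difference from below.

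Cd74 was also the member with the widest range among those well above background on all 6 arrays, so the likeness was measured to it alone. Likeness was the root mean square difference of log2 levels over the 6 arrays, each probe around its own mean, among 14320 named probes well above background on all arrays. The 5 nearest genes were Mpeg1 (0.351), Bcl6 (0.412), Id2 (0.416), Il7r (0.513) and Gsn (0.517). Mpeg1, a pore-forming protein of macrophages and other phagocytes, measured -1.44, 1.33 and 3.56 across wild type HSC, LMPP and CLP and -0.11, 1.88 and 4.08 across Satb1-null. Id2, an inhibitor of E proteins, measured -2.25, -0.55 and 2.62 across wild type and -1.17, -0.22 and 2.53 across Satb1-null. Il7r encodes a surface receptor that is part of the gate for CLP.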

How the data were processed

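The 6 groups of 1 array each (2 genotypes by 3 populations) were read from the labels. The authors deposited scanner files whose spot intensity (green processed signal, linear) was made with Agilent Feature Extraction 10.10.1.1, per the file headers. Per the submitters' processing notes the version was 10.10. A second intensity table deposited by the authors is, on each array, a fixed multiple (5.71 to 8.77) of that signal, with column medians from 120.7 to 200.1. The basis of the constants is unknown, no gene was centred and no direction is involved. Of 62976 spots, 3671 control spots and 154 to 181 outlier-marked spots per array were left out.

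Levels are log2 of the processed signal less its 75th percentile on that array, control spots left aside and spots of a probe averaged. A probe was well above background where all its spots were. Probes were named by RefSeq accession through the table of assembly GRCm38.p6 (27248 of 55681 named), all 11 member probes among them. Members and gene lists were chosen with earlier results of these data known.

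Differences of 2 arrays have no test. Population and common genotype differences were fitted with limma 3.58.1 (R 4.3.3; lmFit, eBayes; genotype and population as terms) on 30557 probes well above background on at least 3 arrays, dim values raised to the array's lowest level well above background, with Benjamini-Hochberg adjustment over all of them. Whether populations of a genotype share embryos is not given, so p-values measure the spread between these arrays, which may be technical. On simulated data the genotype fit recovered 1% of log2 differences of 2 and 43% of those of 4, with 0 false calls. Named besides members were genes of the presentation lists (class II region, promoter factors, endosomal processing, class I, costimulation) that passed a fit or 2-fold in all 3 populations, Irf8, Irf4, Spi1, Rfx5 and Nlrc5, the targeted gene, sort markers and the 5 genes nearest Cd74. Lists of other cells are given as counts, and the few of their markers named were chosen after their values were seen, as were the class II region genes named. The 16 lists matched 131 of 135 genes. Alternatives changed centring, normalization, background correction, filter, floor, threshold and arrays; normexp (offset 50) used the median in place of the mean foreground signal.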

Additional observations from a re-analysis of the deposited data

Results flagged for a closer look

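Of the 11 member probes, 3 had opposite differences in the groups compared, each over 2 times its scanner error. These oppositions rest on single arrays and were not tested. How many of all probes show such an opposition was not counted, so the share among members cannot be set against it. H2-Oa was lower on the Satb1-null array in HSC (-0.56, scanner error 0.23) and higher in CLP (2.55, error 0.26). The same 4 arrays give its change from HSC to CLP, which was -1.60 in wild type and 1.51 in Satb1-null.

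H2-Ob probe 1 had the same shape, with a genotype difference of -0.97 in HSC and 1.58 in CLP, and a change from HSC to CLP of -1.42 in wild type and 1.13 in Satb1-null. H2-Ob probe 2 did not share it: its genotype difference was 0.52 in HSC and at least 0.89 in CLP, and CLP lay below HSC in both genotypes.

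H2-DMb1 was higher on the Satb1-null array in HSC (0.78, error 0.20) and lower in LMPP (-0.43, error 0.20). Its change from HSC to LMPP was accordingly 0.78 in wild type and -0.43 in Satb1-null.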

How the results depend on the processing

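No paired analysis was possible by replicate number because each group had 1 array and the labels give none. The genotype fit does compare arrays within each population, through its population term. Leaving out any 1 array, an alternative added after seeing the data, leaves 1 residual degree of freedom and gave 0 calls among all probes and among members in every fit, and leaving out a population gave 0 to 0 for genotype. All-probe counts moved by more than 1.5 times as follows. The genotype fit had 4 calls, and 0 with quantile normalization or with probes well above background on all 6 arrays. CLP minus LMPP had 901, against 451 with quantile normalization, 2506 with normexp, 1516 with no filter on dim probes and 442 with no floor. CLP minus HSC had 696, against 1410 with median centring and 304, 2482, 1544 and 290 under those same alternatives. Member calls for CLP minus LMPP went from 2 to 4 with median centring, 6 with normexp and 1 with the filter on all 6 arrays, and for CLP minus HSC from 5 to 3 with that filter, which leaves out H2-Aa and H2-Eb1.

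The counts in this paragraph take higher and lower probes together. Counts past 2-fold between genotypes went in HSC from 3 to 1 with the 75th percentile over detected spots, 0 with normexp, 6 at 1.5-fold and 0 at 3-fold. The 3 were all higher on the Satb1-null array. With the 75th percentile over detected spots 0 were higher, and the 1 was lower (H2-Ob probe 1). In LMPP they went from 2 to 1 with normexp, 4 at 1.5-fold and 1 at 3-fold, and in CLP from 3 to 6 at 1.5-fold and 1 at 3-fold. Of the steps, LMPP minus HSC in wild type went from 7 to 4 at 3-fold, CLP minus HSC from 8 to 5 with normexp in either genotype and to 5 at 3-fold in Satb1-null, and CLP minus LMPP in Satb1-null from 7 to 4 at 3-fold. The cause was not tested.

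Signs turned only for uncalled values of H2-DMa, H2-DMb1, H2-Oa, H2-Ob probe 1 and Ciita. With the 75th percentile over detected spots, H2-DMb1 became -0.047 for genotype and -0.068 for LMPP minus HSC, and H2-DMa became -0.19 for CLP minus HSC, as it did with quantile normalization (-0.072) and the authors' values (-0.061). For CLP minus HSC, H2-Oa became 0.34 with median centring, 0.19 with quantile normalization and 0.12 with normexp, H2-Ob probe 1 became 0.24 with median centring and 0.010 with normexp, and Ciita became 0.14 with median centring. Over left-out arrays or populations, genotype differences ranged from -0.33 to 0.27 for H2-DMb1, -0.10 to 1.45 for H2-Oa and -0.56 to 0.72 for H2-Ob probe 1. LMPP minus HSC ranged from -0.38 to 0.73 for H2-DMb1 and -0.0070 to 2.001 for H2-Oa, and CLP minus LMPP from -0.060 to 0.64 for H2-DMb1, -2.37 to 0.28 for H2-Oa and -0.10 to 0.30 for Ciita. CLP minus HSC ranged from -0.026 to 0.27 for H2-DMa, -0.092 to 1.02 for H2-DMb1, -1.37 to 1.28 for H2-Oa and -1.22 to 0.92 for H2-Ob probe 1. Signal over background limits H2-Aa and H2-Eb1 in HSC and H2-Ob probe 2 in wild type CLP to bounds.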
